A study of Homo sapiens with 4 samples.

Results

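The genes examined here code for the subunits of RNA polymerases I, II and III. They were chosen by symbol alone, as every gene in the deposited tables whose name is POLR followed by 1, 2 or 3 and a short subunit code. This gave 30 of 36601 genes, of which 6 code for the large catalytic subunits (POLR1A, POLR1B, POLR2A, POLR2B, POLR3A and POLR3B) and 24 for small or associated subunits. RNA polymerase I transcribes the large ribosomal RNA precursor, RNA polymerase II transcribes messenger RNA, and RNA polymerase III transcribes transfer RNA and other short RNAs. In each enzyme an A and a B subunit form the catalytic centre, around which smaller subunits serve in assembly, initiation and elongation, some of them used by more than 1 of the enzymes.

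The cells were BEAS-2B, an immortalized line of human bronchial epithelium, irradiated with Cs-137 gamma rays. There were 4 single-cell libraries, 1 each for the non-irradiated control, 10 mGy, 100 mGy and 1 Gy, taken for sequencing 30 min after irradiation, and all were of the same line with no other treatment named in the labels. Each library held between 11111 and 21514 cell barcodes and between 211752280 and 285806026 unique molecular identifiers (UMIs), each of which stands for 1 captured mRNA molecule. With 1 library per dose no test between doses was possible, no trend with dose was fitted, and dose and library cannot be told apart. All intervals are exact 95% intervals that cover counting error only.

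A barcode in the middle of its library had 19771 UMIs in control cells, 13757 after 10 mGy, 12417 after 100 mGy and 14277 after 1 Gy. Barcodes with less than the library median divided by 3 are called low-UMI here and made up 19.6%, 41.4%, 27.4% and 25.4% of the libraries in the same order. Pairs of libraries shared between 76 and 134 barcode sequences. Of the markers of epithelial cells, KRT7, KRT8 and KRT18 were at 219 CPM (UMIs per 1000000 UMIs of the library) or more in every library. The others, KRT19, EPCAM, CDH1 and KRT5, were at 2.41 CPM or less. PTPRC of leukocytes and PECAM1 and VWF of endothelium were at 0.490 CPM or less, while of the markers of mesenchyme VIM was at 2344 CPM or more, COL1A1 between 20.5 and 25.6 and PDGFRB between 7.23 and 9.10. Thus KRT7, KRT8 and KRT18 were present, and KRT19, KRT5 and the surface markers of epithelium were close to absent.

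The subunits did not move as 1 group. At the low doses the large catalytic subunits were lower than in the control while most of the shared small subunits were higher, and at 1 Gy nearly all were near the level of the control. Against genes of like transcript length, described further on, all 6 large subunits were within 1.2-fold, and POLR2A was on the higher side at both low doses. A level was the UMIs of a gene summed over all barcodes of a library, in CPM. Each UMI is counted at the 3′ end of a molecule, so levels were not divided by length, and ratios are read for 1 gene between libraries. Ratios to the control were read for genes with a mean of at least 10 CPM over the libraries, which held for 8507 genes and 29 of the subunits. The subunit below that limit was POLR2J2, one of the copies of POLR2J, with 6.18 CPM in control cells, 4.03 after 10 mGy, 4.95 after 100 mGy and 6.70 after 1 Gy.

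At 10 mGy, 9 of the 29 subunits (31.0%) were more than 1.2-fold higher than the control, where 15.4% of all tested genes were. Another 15 (51.7%) were more than 1.2-fold lower, against 53.0% of all tested genes. At 100 mGy the counts were again 9 higher and 15 lower, against 14.0% and 58.9% of all tested genes. At 1 Gy only POLR2G was more than 1.2-fold higher and 0 were lower, against 1.28% and 0.846%. At 1.5-fold, 3 subunits were higher and 5 lower at each low dose, against 4.94% and 25.8% of genes at 10 mGy and 5.04% and 33.9% at 100 mGy, and 0 were past it at 1 Gy, against 0.0118% higher and 0.0235% lower. The genes tested had a median log2 ratio of -0.30 after 10 mGy, -0.38 after 100 mGy and 0.02 after 1 Gy. Relative to that median, 11 subunits were higher and 6 lower at 10 mGy, against 30.7% and 27.0% of genes, and 12 were higher and 3 lower at 100 mGy, against 31.8% and 29.0%. The share of subunits on the lower side was thus close to that of other genes on the CPM scale and below it relative to the median. The share on the higher side was above that of other genes on both of these scales. Against genes of like transcript length, described further on, the higher share was close to that of other genes. It was 20.7% at 10 mGy and 24.1% at 100 mGy, against 22.7% and 23.4% of genes.

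**Figure D1:**
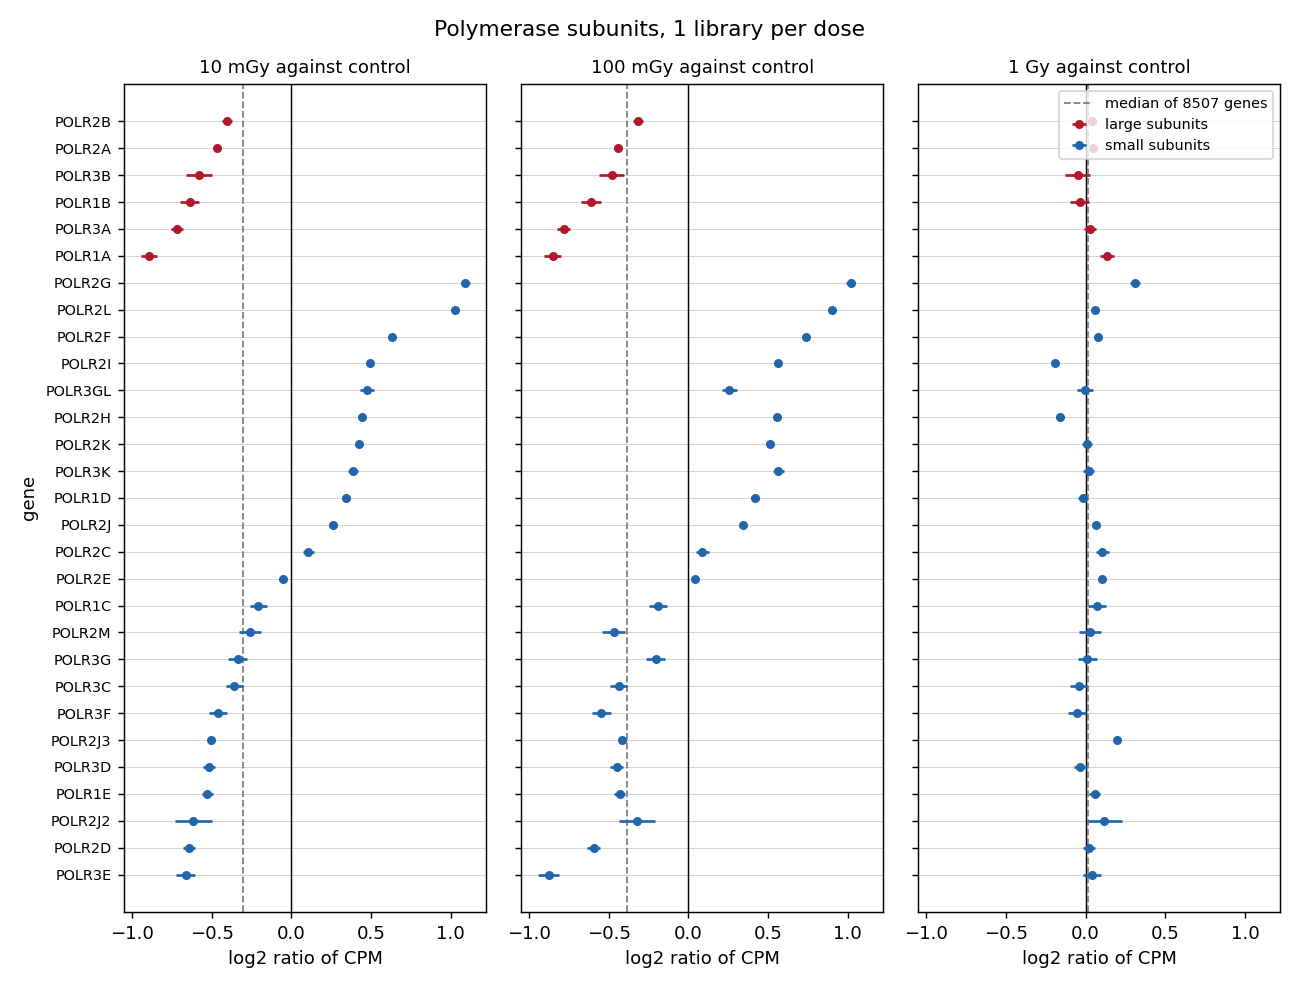
Log2 ratio to the control (x axis) of 29 subunit genes (y axis) at 10 mGy, 100 mGy and 1 Gy, with exact 95% intervals for counting error; red points are the large catalytic subunits, blue points the small ones, and the dashed line the median of 8507 genes. At both low doses the 6 large subunits lie left of 0, though POLR2B lies right of the dashed line at 100 mGy, and the small ones spread from -0.66 to 1.09 at 10 mGy, while at 1 Gy all lie between -0.19 and 0.31.

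All 6 large catalytic subunits were more than 1.2-fold lower than the control at both low doses, where 53.0% and 58.9% of all tested genes were. Their median log2 ratio was -0.61 and -0.55. None was past 1.2-fold at 1 Gy, where the median was 0.03, and at the low doses against genes of like transcript length none of the 6 was past 1.2-fold. POLR1A, the largest subunit of polymerase I, was at 36.2 CPM in control cells, 19.5 after 10 mGy, 20.1 after 100 mGy and 39.7 after 1 Gy. The ratio to control cells was 0.538 after 10 mGy (0.519 to 0.557) and 0.554 after 100 mGy (0.535 to 0.574). POLR1B, which completes the catalytic centre of polymerase I, was at 22.3, 14.4, 14.6 and 21.8 CPM in the same order. The level of both was thus low in the libraries of the low doses and alike in the control and at 1 Gy.

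For polymerase II, POLR2A carries the C-terminal repeat domain to which processing factors bind, and POLR2B completes its catalytic cleft. POLR2A was at 150.0 CPM in control cells, 108.7 after 10 mGy, 110.3 after 100 mGy and 155.0 after 1 Gy, with ratios of 0.724 (0.713 to 0.736) and 0.736 (0.724 to 0.748) at the low doses. POLR2B was at 77.3, 58.5, 62.1 and 79.3 CPM. These were the smallest differences among the large subunits. Relative to the median of all tested genes they were small, and that of POLR2B at 100 mGy was on the higher side, by 0.07 on the log2 scale.

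For polymerase III, POLR3A was at 51.8 CPM in control cells, 31.5 after 10 mGy, 30.1 after 100 mGy and 52.9 after 1 Gy, with ratios of 0.608 (0.591 to 0.625) and 0.581 (0.564 to 0.599). POLR3B was at 12.8, 8.60, 9.20 and 12.4 CPM. The order of the enzymes was the same at both low doses for the A subunits, with polymerase I lowest relative to the control, then III, then II, but at 100 mGy the intervals of POLR1A and POLR3A overlapped. Against genes of like transcript length POLR1A and POLR3A were alike at 10 mGy, at -0.175 and -0.172 on the log2 scale. At 100 mGy POLR3A was the lower, at -0.131 against 0.013, so the order did not hold there. Relative to the median of all tested genes, 4 of the 6 large subunits were more than 1.2-fold lower at 10 mGy and 2 at 100 mGy, against 27.0% and 29.0% of genes, so the count at 100 mGy was near that of other genes.

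**Figure D2:**
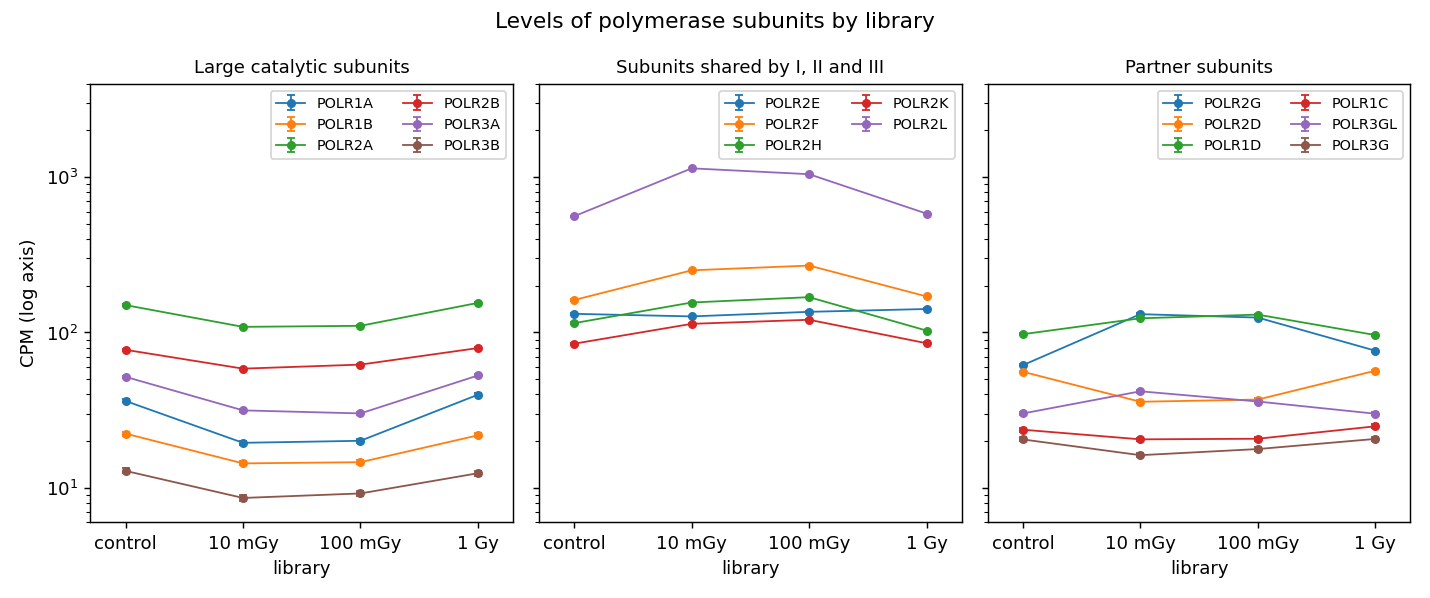
Levels in CPM (log axis) by library (x axis) of the 6 large catalytic subunits, of the 5 subunits shared by all 3 polymerases and of 3 pairs of partner subunits, with exact Poisson intervals, most of them smaller than the points. On this scale, which takes no account of transcript length, the large subunits dip at 10 mGy and 100 mGy, 4 of the 5 shared subunits peak there, and POLR2G and POLR2D are at 61.6 and 55.8 in the control and move apart.

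The 5 subunits used by all 3 enzymes were the group with the highest ratios, with a median log2 ratio of 0.44 at 10 mGy and 0.56 at 100 mGy, and 4 of 5 were more than 1.2-fold higher at each, against 15.4% and 14.0% of all tested genes. POLR2L, known as RPB10, was at 560.1 CPM in control cells, 1140 after 10 mGy, 1045 after 100 mGy and 582.3 after 1 Gy. Its ratios at the low doses were 2.03 (2.02 to 2.05) and 1.87 (1.85 to 1.88). POLR2F, known as RPB6, was at 161.9, 251.3, 269.6 and 170.6 CPM.

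POLR2H and POLR2K, known as RPB8 and RPB12, were also highest in the libraries of the low doses. POLR2H was at 114.8 CPM in control cells, 155.9 after 10 mGy, 168.8 after 100 mGy and 102.8 after 1 Gy, and POLR2K was at 84.7, 113.6, 120.7 and 85.2 CPM. Against genes of like transcript length POLR2K differed by only -0.0059 and 0.05 on the log2 scale at the low doses. The exception was POLR2E, known as RPB5, at 131.8, 126.9, 135.8 and 141.6 CPM, which stayed within 1.2-fold of the control in every library but was higher by 0.34 at 100 mGy against genes of like length. POLR2L was thus highest at 10 mGy, and POLR2F, POLR2H and POLR2K at 100 mGy.

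Polymerases I and III share a pair of assembly subunits that bind each other. POLR1D, known as AC19, was at 97.5 CPM in control cells, 123.4 after 10 mGy, 130.3 after 100 mGy and 96.3 after 1 Gy. Its partner POLR1C, known as AC40, was at 23.7, 20.5, 20.7 and 24.9 CPM. POLR1D made up 80.5% (80.0 to 81.0%) of the UMIs of the pair in control cells, 85.7% (85.4 to 86.1%) after 10 mGy, 86.3% (85.9 to 86.6%) after 100 mGy and 79.5% (79.0 to 80.0%) after 1 Gy. A share within a pair needs no scaling between libraries but takes no account of transcript length. Here it was higher at the low doses than in either other library.

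Of the subunits used only by polymerase II, POLR2G and POLR2D, known as RPB7 and RPB4, form the stalk of the enzyme and bind each other. POLR2G had the highest ratio of all subunits at each dose, at 61.6 CPM in control cells, 131.2 after 10 mGy, 124.7 after 100 mGy and 76.3 after 1 Gy. Its ratio was 2.13 (2.09 to 2.17), 2.02 (1.98 to 2.07) and 1.24 (1.21 to 1.27). POLR2D was at 55.8, 35.8, 37.0 and 56.7 CPM, or 0.641 (0.624 to 0.658) and 0.662 (0.644 to 0.681) of the control at the low doses.

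The stalk partners thus lay on opposite sides of the control at the low doses, but against genes of like transcript length POLR2D differed by only -0.15 at 10 mGy and -0.0026 at 100 mGy on the log2 scale, while POLR2G was higher by 0.87 and 0.83. POLR2G gave 52.5% (51.8 to 53.1%) of the UMIs of the pair in control cells, 78.6% (78.2 to 78.9%) after 10 mGy, 77.1% (76.7 to 77.5%) after 100 mGy and 57.4% (56.8 to 58.0%) after 1 Gy. Without low-UMI barcodes the shares were 52.3%, 78.3%, 77.1% and 56.9%.

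The other subunits of polymerase II spanned both directions. POLR2I, known as RPB9, which acts in elongation and proofreading, was at 236.3 CPM in control cells, 332.9 after 10 mGy, 349.3 after 100 mGy and 207.0 after 1 Gy, but against genes of like transcript length it differed by only 0.05 and 0.08 on the log2 scale at the low doses. POLR2C and POLR2J, known as RPB3 and RPB11, form the assembly pair of polymerase II. POLR2C stayed within 1.2-fold of the control, at 46.8, 50.5, 49.8 and 50.4 CPM, and POLR2J was at 216.9, 259.9, 275.0 and 226.8 CPM, past 1.2-fold at 100 mGy and just within it at 10 mGy. POLR2M, a protein associated with polymerase II, was at 15.7, 13.1, 11.4 and 16.0 CPM, but its annotated exons share 1387 bases on the same strand with GCOM1, so its counts are uncertain.

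POLR2J2 and POLR2J3 are copies of POLR2J, and reads could be split among them. Their longest annotated transcripts have 2065 and 4630 bases, against 932 for POLR2J. POLR2J3 was at 239.1 CPM in control cells, 168.7 after 10 mGy, 179.5 after 100 mGy and 274.4 after 1 Gy, opposite to POLR2J at the low doses. Against genes of like transcript length this did not hold, with POLR2J at -0.18 and -0.14 and POLR2J3 at -0.02 and 0.14 on the log2 scale, so both were on the lower side at 10 mGy and their sides were exchanged at 100 mGy. Its share of the UMIs of the 3 genes was 51.7%, 39.0%, 39.1% and 54.0%, and 48.5%, 21.8%, 26.0% and 42.9% in the low-UMI barcodes alone. The sum of the 3 genes differed little, at 462.2, 432.6, 459.4 and 507.9 CPM. At the low doses the division between the copies thus changed more than their sum, and which copy the molecules came from is uncertain.

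Of the 8 small subunits used only by polymerase III, 6 were more than 1.2-fold lower at 10 mGy and 5 at 100 mGy. Of all tested genes 53.0% and 58.9% were, so the count at 100 mGy was near that of other genes. Against genes of like transcript length only POLR3C (-0.46) and POLR3F (-0.36) of them were past 1.2-fold lower at 10 mGy. There 20.4% of genes were lower, and POLR3GL (0.27) was past it on the higher side. At 100 mGy POLR3C (-0.49), POLR3F (-0.39) and POLR3E (-0.30) were lower and POLR3K (0.31) higher, where 21.7% of genes were lower. POLR3C, POLR3F and POLR3G or POLR3GL form the trimer that opens the promoter. POLR3C was at 28.3, 22.1, 20.9 and 27.5 CPM, and POLR3F was at 23.9, 17.3, 16.4 and 23.0 CPM, in the order control, 10 mGy, 100 mGy and 1 Gy. Both were lowest at 100 mGy.

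POLR3G and POLR3GL are alternative members of that trimer, the former known from stem and tumour cells and the latter from most adult tissues. POLR3G was at 20.5 CPM in control cells, 16.2 after 10 mGy, 17.8 after 100 mGy and 20.6 after 1 Gy. POLR3GL was at 30.1, 41.8, 35.9 and 29.98 CPM. POLR3GL made up 59.5% (58.6 to 60.4%) of the UMIs of the pair in control cells, 72.1% (71.4 to 72.7%) after 10 mGy, 66.9% (66.1 to 67.7%) after 100 mGy and 59.2% (58.3 to 60.2%) after 1 Gy. Against genes of like transcript length POLR3GL was at 0.27 at 10 mGy and 0.08 at 100 mGy on the log2 scale, and POLR3G at -0.05 and 0.12, so the order of the alternative forms turned at 100 mGy.

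POLR3D and POLR3E form an initiation pair of polymerase III. POLR3D was at 50.7, 35.4, 37.1 and 49.5 CPM, and POLR3E was at 23.2, 14.7, 12.6 and 23.9 CPM, with a ratio of 0.545 (0.521 to 0.570) at 100 mGy, the lowest of the tested subunits at that dose, with an interval that overlapped that of POLR1A. POLR3K, known as RPC11, which acts in RNA cleavage and termination, was the only subunit particular to polymerase III besides POLR3GL with a higher level at the low doses, at 55.7, 72.8, 82.4 and 56.5 CPM. Against genes of like transcript length at 10 mGy and 100 mGy, POLR3D was at -0.03 and 0.14, POLR3E at -0.18 and -0.30 and POLR3K at 0.09 and 0.31 on the log2 scale, so of these 3 only POLR3E and POLR3K were past 1.2-fold, at 100 mGy. The small subunit used only by polymerase I that the naming rule took, POLR1E, known as PAF53, which acts in initiation, was at 64.6, 44.8, 47.8 and 67.2 CPM, lower at the low doses like POLR1A and POLR1B.

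**Figure D3:**
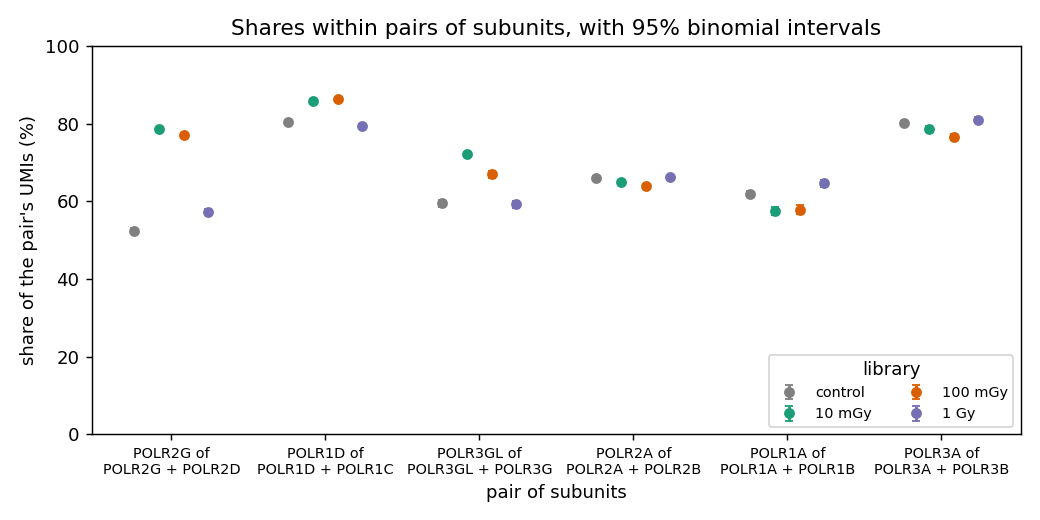
Share of the UMIs of 6 pairs of subunits (y axis, percent) that came from the first gene of the pair, by library, with exact binomial 95% intervals. The share of POLR2G in its pair goes from 52.5% to 78.6% between the control and 10 mGy, whereas that of POLR2A in its pair stays between 64.0% and 66.1% in all libraries. These shares take no account of transcript length.

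Set side by side, the libraries of 10 mGy and 100 mGy differed little from each other. The ratio of the level at 100 mGy to that at 10 mGy lay between 0.859 (POLR3GL) and 1.13 (POLR3K) for the 29 tested subunits. Thus 0 of them were past 1.2-fold in either direction, against 1.35% of all tested genes higher and 12.7% lower. POLR2G and POLR2L were lower at 100 mGy, with ratios of 0.951 (0.936 to 0.965) and 0.917 (0.912 to 0.921), while POLR2F, POLR2H, POLR2I and POLR2K were higher, with ratios between 1.05 and 1.08.

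The share of the subunit UMIs that came from the 6 large subunits compares the groups within a library and needs no scaling. It takes no account of transcript length, with which the ratios of all tested genes went at the low doses, as described further on. It was 12.7% (12.7 to 12.8%) in control cells, 6.94% (6.89 to 6.99%) after 10 mGy, 7.09% (7.03 to 7.14%) after 100 mGy and 12.8% (12.7 to 12.9%) after 1 Gy. In the low-UMI barcodes alone it was 13.3%, 6.36%, 6.82% and 11.8%, so the libraries of both low doses were below the others there too. POLR2L contributed more UMIs than any other subunit, and without it the share was 16.0% in control cells, 10.3% after 10 mGy, 10.1% after 100 mGy and 16.1% after 1 Gy.

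The same comparison, again without account of transcript length, was made within the members used only by each enzyme. For polymerase I these were POLR1A, POLR1B and POLR1E, and the large subunits gave 47.6% (47.0 to 48.2%) of their UMIs in the control and 43.0% (42.4 to 43.7%) at 10 mGy. For polymerase II the share was 20.6% (20.4 to 20.7%) and 14.4% (14.2 to 14.5%), and for polymerase III it was 18.6% (18.3 to 18.9%) and 13.3% (13.0 to 13.5%). The values at 100 mGy were 42.0%, 14.3% and 13.1%, and those at 1 Gy were 47.8%, 20.4% and 18.9%. Other subunits of polymerases I and III are in the tables under symbols outside the naming rule, and with these added the share for polymerase I was 19.2% in control cells, 13.2% after 10 mGy, 12.8% after 100 mGy and 19.7% after 1 Gy. For polymerase III it was then 13.9%, 10.1%, 9.90% and 14.1%. With either set of subunits the large ones gave a lower share at the low doses and about the share of the control at 1 Gy.

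**Figure D4:**
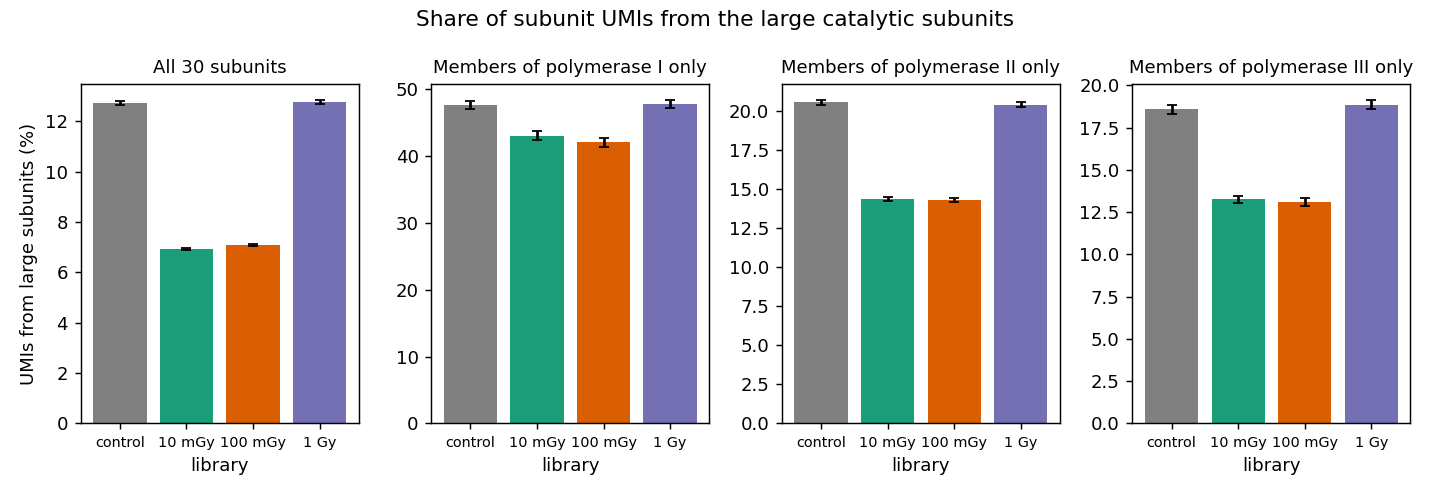
Percent of the UMIs of a set of subunit genes that came from its large catalytic subunits, by library (x axis), for all 30 subunits and for those of the 30 used only by polymerase I, II or III, with exact binomial 95% intervals as error bars; the scales of the y axes differ between panels. Among all subunits the share was 12.7% in control cells, 6.94% after 10 mGy, 7.09% after 100 mGy and 12.8% after 1 Gy. The shares take no account of transcript length.

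The median log2 ratio of the large subunits minus that of the 23 tested small ones was -0.55 after 10 mGy, -0.59 after 100 mGy and 0.01 after 1 Gy. The size of a subunit goes with the length of its transcript, and the ratio to the control went with transcript length over all tested genes. Among genes whose longest annotated transcript was under 1000 bases the log2 ratios had a median of 0.50 at 10 mGy and 0.56 at 100 mGy, and among those of 6000 bases or more it was -0.63 and -0.75. At 1 Gy the same medians were -0.03 and 0.01. Spearman's rho between length and log2 ratio was -0.82 after 10 mGy, -0.81 after 100 mGy and 0.05 after 1 Gy over the 29 subunits, and -0.62, -0.63 and 0.02 over 8499 genes. These are descriptions across genes that share their libraries, and genes are not independent replicates.

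When each gene was set against the running median of the 501 genes nearest in transcript length, the difference between large and small subunits was -0.20 at 10 mGy and -0.08 at 100 mGy. None of the 6 large subunits was then past 1.2-fold in either direction, and POLR2A was on the higher side, by 0.09 and 0.21 on the log2 scale. Of all 29 subunits, 6 were higher and 3 lower at 10 mGy, against 22.7% and 20.4% of genes, and 7 were higher and 4 lower at 100 mGy, against 23.4% and 21.7%. With exonic length in its place, 6 were higher and 5 lower at 10 mGy, against 24.4% and 21.8%, and 8 were higher and 3 lower at 100 mGy, against 25.6% and 23.8%. The part of transcript length in the low levels of the large subunits was not tested beyond this comparison.

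Some subunits stood away from genes of like length. POLR1D, whose longest annotated transcript has 4592 bases, was higher than genes of that length by 0.81 at 10 mGy and 0.94 at 100 mGy on the log2 scale. The longest annotated transcript need not be the form expressed, and which form was expressed was not tested. Against the control POLR1D was at 0.34 and 0.42. These values lay between the medians of genes under 1000 bases (0.50 and 0.56) and of 1000 to under 2000 (0.23 and 0.19). POLR2F was higher by 0.64 and 0.82, POLR2L by 0.58 and 0.42, and POLR2H by 0.32 and 0.49. On the lower side, POLR1E differed from genes of its length by -0.49 and -0.33, POLR3C by -0.46 and -0.49, and POLR3F by -0.36 and -0.39. The direction of POLR1A, POLR2A, POLR2B, POLR2J, POLR2J3, POLR2M, POLR3D and POLR3G at 100 mGy, and of POLR2A, POLR2E, POLR2J, POLR2K and POLR2M at 10 mGy, among others, was the other way on this scale than against the control.

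**Figure D5:**
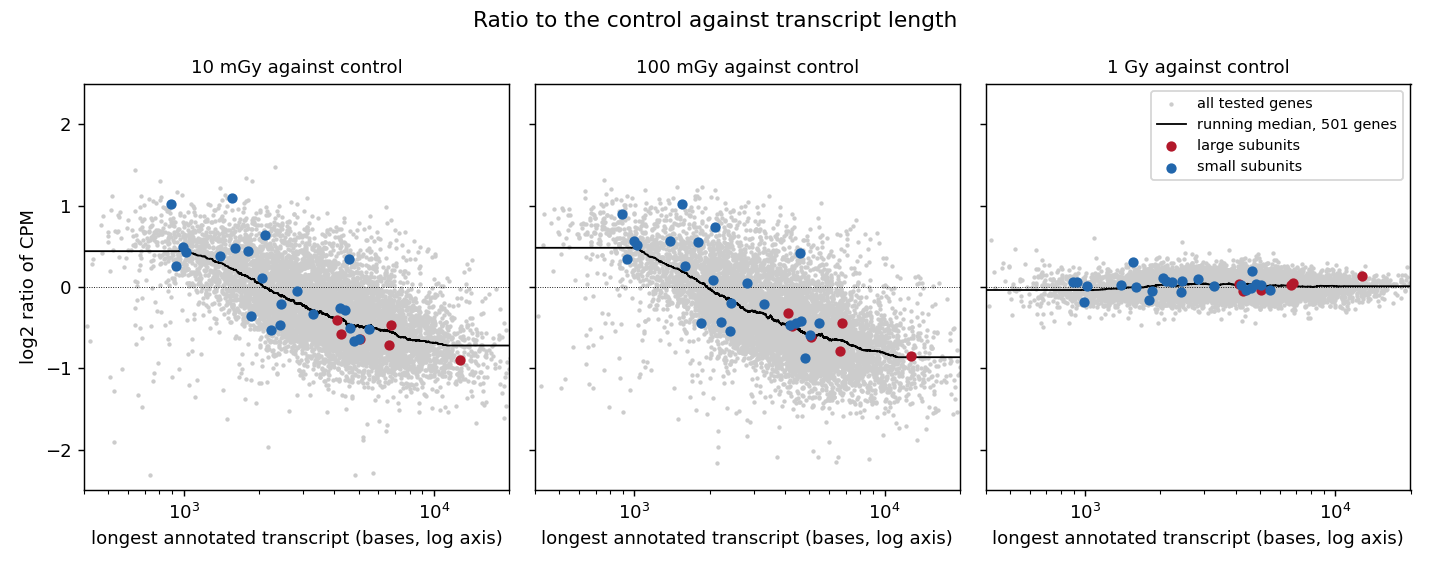
Log2 ratio to the control (y axis) against the longest annotated transcript in bases (x axis, log axis) at 10 mGy, 100 mGy and 1 Gy; grey points are the tested genes, the black line their running median over 501 genes, red points the large catalytic subunits and blue points the small ones. At the low doses the line falls from left to right and the large subunits lie near it, within 0.21 on the log2 scale, while POLR2G and POLR1D lie above it.

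The sequences before the start sites of 3 members are shown because these genes had the lowest ratios among the large subunits (POLR1A, POLR3A) and the highest ratio among the small ones that had an entry (POLR2L). They are the 250 bases before the RefSeq start on GRCh38.p14, minus strand, 5′ to 3′. Capitals mark matches, on either strand, to motifs of promoters. ETS factor sites were searched by their core CCGGAAG. For the GC box, which Sp1 binds, the letters were GGGCGG. The search for a TATA box used TATAAA, and in the windows shown no match overlapped another.
POLR1A, chr2:86105887-86106136: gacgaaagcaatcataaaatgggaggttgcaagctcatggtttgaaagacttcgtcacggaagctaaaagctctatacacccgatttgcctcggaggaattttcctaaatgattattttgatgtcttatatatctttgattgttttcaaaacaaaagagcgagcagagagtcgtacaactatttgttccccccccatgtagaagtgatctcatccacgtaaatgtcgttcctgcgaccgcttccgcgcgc
POLR3A, chr10:78029516-78029765: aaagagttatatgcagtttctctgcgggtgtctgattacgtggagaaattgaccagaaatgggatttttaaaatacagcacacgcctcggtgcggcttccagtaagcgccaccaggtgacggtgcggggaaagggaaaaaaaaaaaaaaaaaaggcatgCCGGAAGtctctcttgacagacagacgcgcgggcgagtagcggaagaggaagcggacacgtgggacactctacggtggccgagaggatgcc
POLR2L, chr11:842530-842779: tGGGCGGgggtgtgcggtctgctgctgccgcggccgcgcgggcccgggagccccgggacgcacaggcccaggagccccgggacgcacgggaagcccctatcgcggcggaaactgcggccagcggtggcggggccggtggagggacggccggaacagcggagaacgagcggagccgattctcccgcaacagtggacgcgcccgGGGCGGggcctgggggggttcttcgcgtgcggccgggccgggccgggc
POLR2L had GGGCGG in its window, POLR3A had CCGGAAG, and POLR1A had none of these letters. GENCODE 29, the source of the lengths, places the 5′ end of POLR1A at 86106155, so its window lies wholly inside the gene in that annotation. Windows of 21 members were in the table, some with more than 1 start. GGGCGG was in 6 of 8 windows of large subunits and 15 of 19 of small ones, against 42.6% of all 35116 windows. CCGGAAG was in 3 of 8 and 5 of 19, against 8.52%, and TATAAA in 0 of 8 and 1 of 19, against 10.7%. Both sizes of subunit thus had windows with and without the GC box. A match is a description of the letters and not a site.

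The study followed the dispersion of expression across cells. Here it was computed as the standard deviation over the mean of UMIs scaled to 10000 per barcode, a scaling not found in its methods. The study described about 10000 cells per group, while every deposited barcode, low-UMI ones included, was used here, so the cells may differ. The dispersion was not lower at 100 mGy than at 10 mGy for any of the 29 subunits, against 1.41% of all tested genes that were lower. POLR2L, which the supplement of the study lists among genes picked for falling dispersion, had 59.8% in control cells, 52.5% after 10 mGy, 61.6% after 100 mGy and 70.5% after 1 Gy. POLR2J3, also on that list, had 85.8%, 128.1%, 129.8% and 96.7%. The list was chosen on these samples, so it is not independent of these values.

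Dispersion depends on the depth of a barcode, and depth differed between the libraries. After thinning each barcode to 5000 UMIs, which left out 2051, 8953, 5679 and 3980 shallower barcodes, the dispersion of 19 of 29 subunits was lower at 100 mGy than at 10 mGy, against 30.1% of all tested genes. These were 5 of the 6 large and 14 of the 23 small subunits. All 19 also had a higher mean of thinned UMIs at 100 mGy than at 10 mGy, and the remaining subunits had a lower mean. The count thus went with the levels of the subunits, and a change of spread apart from level was not tested. POLR2J3 then had 95.1%, 111.8%, 108.8% and 87.7%, and POLR2L had 62.2%, 44.4%, 46.8% and 61.3%. The number of subunits of lower dispersion at 100 mGy, and the order of the low doses for POLR2J3, thus turned on the treatment of depth, while POLR2L was lower at 10 mGy both ways.

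Genes that act with the polymerases were read from a list of 66, of which 62 were tested. At 10 mGy, 7 of the 62 were more than 1.2-fold higher and 33 lower, and at 100 mGy 9 were higher and 33 lower, against the 15.4%, 53.0%, 14.0% and 58.9% of all tested genes given above. At 1 Gy NELFE was higher and BDP1 lower. The counts of the partners at the low doses were thus close to those of all tested genes. Single partners were not set against the running median of genes of like transcript length.

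Factors of polymerase I were lower in 4 of 5 cases at each low dose, against 53.0% and 58.9% of all tested genes. The lowest were RRN3, which brings polymerase I to its promoter, with a log2 ratio of -0.83 at 10 mGy and -0.87 at 100 mGy, and UBTF, which binds the ribosomal gene repeats, with -0.78 and -0.89. Among the elongation and pausing factors 10 of 14 were lower at 10 mGy and 11 at 100 mGy, against the same shares of all tested genes. The lowest value at both doses was that of ELL2 of the super elongation complex, -1.03 and -1.11. The next lowest was HEXIM1, an inhibitor of the elongation kinase, at 10 mGy, with -0.92, and ELL at 100 mGy, with -0.99. SUPT4H1, the small partner of SUPT5H, was higher, with 0.56 at both doses. The longest transcripts of ELL2, UBTF and ELL have 6046, 4997 and 4074 bases, those of RRN3 and HEXIM1 3762 and 3600, and that of SUPT4H1 1643. Over all tested genes the medians at the low doses were -0.63 and -0.75 from 6000 bases and -0.45 and -0.55 from 4000 to under 6000. They were -0.20 and -0.27 from 2000 to under 4000 bases and 0.23 and 0.19 from 1000 to under 2000.

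The general factors of polymerase II were mixed, with 2 of 16 higher and 7 lower at 10 mGy and 4 higher and 5 lower at 100 mGy. Of all tested genes 15.4% were higher and 53.0% lower at 10 mGy, and 14.0% and 58.9% at 100 mGy. GTF2H5, the smallest subunit of TFIIH, was at the top with 0.52 and 0.75, followed at 10 mGy by GTF2B with 0.31 and 0.33. The lowest at 10 mGy were GTF2A1, with -0.70 and -0.73, and ERCC2, a helicase of TFIIH, with -0.61 and -0.54, whereas GTF2H1 was the lowest at 100 mGy, with -0.78. Of the factors of polymerase III, 2 of 15 were higher at each low dose, while 7 were lower at 10 mGy and 8 at 100 mGy. GTF3C4 and BDP1 had the lowest values there at 10 mGy, -0.91 and -0.85, and SNAPC5 and GTF3C6 the highest, 0.37 and 0.32. The longest transcripts of BDP1, GTF3C4 and GTF2A1 have 11073, 9043 and 6306 bases, and those of ERCC2 and GTF2H1 4122 and 2982. Those of SNAPC5, GTF2B and GTF3C6 have 1741, 1351 and 952. That of GTF2H5 has 7481, where genes of 6000 or more had medians of -0.63 and -0.75 at the low doses, so GTF2H5 was above them.

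Of 12 assembly factors, which help build the polymerases in the cytoplasm, 2 were higher and 5 lower at each low dose. The shares of all tested genes were 15.4% and 53.0% at 10 mGy and 14.0% and 58.9% at 100 mGy. UXT, a prefoldin-like partner of URI1, had log2 ratios of 0.79 and 0.86, and PFDN2 had 0.35 and 0.40. RPAP2, a phosphatase of the C-terminal domain, had -0.81 and -0.84, and URI1 had -0.55 and -0.65. Tested genes under 1000 bases had medians of 0.50 and 0.56, so PFDN2, of 677 bases, was below them and UXT, of 894, above. RPAP2 has 16993 bases, where genes of 6000 or more had -0.63 and -0.75. URI1 has 3444, where genes of 2000 to under 4000 had -0.20 and -0.27. Subunits listed under older symbols were outside the naming rule: ZNRD1 and TWISTNB of polymerase I had log2 ratios of 0.56 and 0.22 at 10 mGy, while CD3EAP of polymerase I and CRCP of polymerase III had -0.51 and -0.33. Adding these 4 to the small subunits left the difference between large and small subunits at -0.55 at 10 mGy and -0.59 at 100 mGy. At both doses ZNRD1 and TWISTNB lay above the median of the small subunits and CD3EAP and CRCP below it. That median, and with it the difference, could therefore not change.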

How the data were processed

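Gene expression of BEAS-2B cells was read from 4 single-cell 3′ libraries, 1 per dose, grouped by the sample labels. What the authors deposited are raw UMI counts, by gene and by barcode, made with Cell Ranger 7.0.1 per the file headers. The submitters' processing notes name GRCh37, the files hold no coordinates, and lengths and windows came from GENCODE 29 and RefSeq on GRCh38, matched by gene identifier or symbol.

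Counts over members include 1 subunit whose own values are not reported here. Every deposited barcode was used, and doublets were not removed. UMIs were summed per library and divided by the library total (211752280 to 285806026). Ratios carry exact conditional binomial intervals, levels exact Poisson intervals and shares Clopper-Pearson intervals. The ratios, the running median and the thinning were tested on simulated data. No test between doses was made, since each has 1 library.

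The gene family, its members and the gene lists were chosen with earlier results of these data known, and within the family every gene whose symbol met the rule was taken. The genes described singly were, by a rule set apart from membership, the large, shared and assembly subunits, POLR3G, POLR3GL, POLR2J3, the 3 highest and 3 lowest ratios at the low doses, those past 1.2-fold at 1 Gy, and of the related genes the 2 highest and 2 lowest per group. The pair POLR2G and POLR2D and the values of further members were taken up after they had been seen. Python 3.11.15 was used with pandas 2.3.3, numpy 2.4.6, matplotlib 3.10.9 and scipy 1.17.1. Alternatives covered scaling, averaging, barcodes, floors, folds, length and membership.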

Additional observations from a re-analysis of the deposited data

How the results depend on the processing

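No paired analysis was possible because each dose has 1 library. The missing replicates, not the counts, limit the precision. The difference between large and small subunits at 10 mGy (-0.553) and 100 mGy (-0.590) kept its sign under every alternative. It was -0.642 and -0.639 with means of scaled barcodes, -0.477 and -0.472 with a minimum of 1 CPM, with no filter or without POLR2L, -0.868 and -0.803 without subunits of middle size, and -0.634 at 10 mGy without the POLR2J genes and POLR2M. It shrank to -0.291 and -0.237 against genes of like exonic length and to -0.204 and -0.082 against genes of like longest transcript. The longest transcript, the omission of POLR2L, the addition of subunits under other symbols, also to the shares, and the thinned dispersion were chosen after seeing the data.

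The share of the large subunits was lower at both low doses than in the other libraries under every alternative applied to it. These changed barcodes, averaging and membership, and none took account of transcript length. In barcodes of 10000 to 30000 UMIs it was 7.002% after 10 mGy, 7.23% after 100 mGy and 12.9% after 1 Gy, and as a mean of scaled barcodes 6.67%, 6.85% and 12.5%. Without the POLR2J genes and POLR2M it was 15.4% in the control, 7.96%, 8.20% and 15.7%, and without POLR2L it was 16.0%, 10.3%, 10.1% and 16.1%.

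At 1.5-fold, 3 subunits were higher and 5 lower at 10 mGy and at 100 mGy, and 0 were higher at 1 Gy. Of all tested genes 4.94% were higher and 25.8% lower at 10 mGy, 5.04% and 33.9% at 100 mGy, and 0.0118% higher at 1 Gy. The number of lower subunits was 15 at each low dose, where 53.0% and 58.9% of all tested genes were lower. Under median ratio scaling it was 6 at 10 mGy and 3 at 100 mGy, where 27.0% and 29.0% of genes were lower. Relative to genes of like exonic length it was 5 and 3, beside 21.8% and 23.8% of genes. With the longest transcript it was 3 and 4, beside 20.4% and 21.7%. The share of all genes thus fell too. The number of subunits of lower dispersion at 100 mGy than at 10 mGy was 0 over all barcodes and 19 after thinning, against 1.41% and 30.1% of all tested genes.

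Of 840 values of single subunits, 43 changed sign, of which 16 had been past 1.2-fold. Among these 16, POLR2B at 100 mGy (0.067) did so under median ratio scaling. Against genes of like exonic length and of like longest transcript they were POLR2A at 10 mGy (0.038 and 0.090) and 100 mGy (0.171 and 0.213), and at 100 mGy POLR2B (0.120 and 0.141), POLR2J (-0.053 and -0.139), POLR2J3 (0.159 and 0.135) and POLR2M (0.035 and 0.00012). Against the longest transcript alone they were POLR1A (0.013) and POLR3D (0.144) at 100 mGy and POLR2K (-0.0059) at 10 mGy. Of the ratios within 1.2-fold, 17 changed sign at the low doses, for POLR1C, POLR2E, POLR2J, POLR2M, POLR3G and POLR3GL, and 10 at 1 Gy. The cause of these changes was not tested.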
